A study of Mus musculus with 20 samples.

Results

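The secreted frizzled-related proteins of the mouse are encoded by 5 genes: Sfrp1, Sfrp2, Sfrp4, Sfrp5 and Frzb. They were taken by symbol as a whole family, and are 5 of the 54446 genes measured by RNA-seq in 20 libraries of mouse tibia. The family was chosen with earlier results of these data known. All libraries came from male C57BL/6J mice aged 3 months, and each of the 4 groups held 5 libraries. Unloaded vehicle tibiae (Vehicle_Ctrl) and loaded vehicle tibiae (Vehicle_Load) came from mice given water by subcutaneous injection for 5 days. Unloaded DEX tibiae (DEX_Ctrl) and loaded DEX tibiae (DEX_Load) came from mice given DEX, the synthetic glucocorticoid dexamethasone, at 1 mg/kg by the same route and for the same 5 days. The left tibia was compressed along its axis at -13 N, about 1300 microstrain, for 40 cycles of 0.1 s with 10 s of rest between them, and the labels place the sessions on days 1 and 3. The study's own text differs from the labels here: it gives more sessions a week, the last of them some hours before the bones were frozen, so the time from the last loading to harvest is uncertain. The right tibia of the mouse was the unloaded control, so it shared the circulation and the injections of the loaded limb. The bones were crushed and extracted as a whole, and each library is a mixture of tissues, with markers of bone, marrow cells, cartilage and muscle.

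Secreted frizzled-related proteins carry a cysteine-rich domain like that of the frizzled receptors, which lets them bind Wnt ligands outside the cell and keep them from the receptors. A second domain, related to netrin, follows it. In bone, Wnt signalling favours bone formation, and the family belongs with sclerostin and the Dickkopf proteins to the secreted factors that adjust it, although single members can also help Wnt signals along. Sfrp1 deletion is known to raise trabecular bone mass, Sfrp4 loss thins cortical bone in mice and causes Pyle disease in humans, and Frzb is best known from cartilage. The study itself picked Sfrp1 and Sfrp2 from these same libraries, as genes that responded to loading and responded less under DEX. The pick also drew on RNA-seq of cortical bone from patients with and without glucocorticoid-induced osteoporosis. In these libraries their rise with loading, their interaction of DEX and loading and their fall with DEX in loaded tibiae are therefore not independent evidence. By qPCR in human periosteum-derived cells, the study reported that DEX lowered SFRP1 and SFRP2 and that Yoda1, a Piezo1 agonist, reversed this.

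The stretch of coding sequence that the 5 genes share most is shown first, because it marks them as a single family and because near-identical copies could share reads. It is a run of 60 coding bases in exon 1 of each gene, within the part that encodes the frizzled-like domain, taken from the GENCODE M21 transcripts on GRCm38. Capitals mark the 24 bases that are the same in all 5 genes, and each sequence reads 5′ to 3′ on the strand of its gene.
Sfrp1, chr8:23411977-23412036, plus strand: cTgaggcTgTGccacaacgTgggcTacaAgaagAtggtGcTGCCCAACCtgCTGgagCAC
Sfrp2, chr3:83766680-83766739, plus strand: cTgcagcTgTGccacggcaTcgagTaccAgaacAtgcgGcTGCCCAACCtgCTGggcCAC
Sfrp4, chr13:19623517-19623576, plus strand: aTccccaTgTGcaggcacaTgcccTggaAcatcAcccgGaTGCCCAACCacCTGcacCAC
Sfrp5, chr19:42201784-42201843, minus strand: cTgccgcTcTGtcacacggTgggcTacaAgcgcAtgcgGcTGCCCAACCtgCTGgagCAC
Frzb, chr2:80446664-80446723, minus strand: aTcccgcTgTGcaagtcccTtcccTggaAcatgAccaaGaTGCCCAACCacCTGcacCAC

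The capitals fall mainly in the second part of the window. Over the whole coding sequences, aligned codon by codon, Sfrp1 and Sfrp5 shared 66.01% of their bases and Sfrp4 and Frzb shared 63.9%. Sfrp2 shared 59.6% with Sfrp1 and 56.7% with Sfrp5. The pairs across these branches, Sfrp1, Sfrp2 or Sfrp5 against Sfrp4 or Frzb, shared 41.0% to 45.4%. The longest run of identical bases between any 2 of the transcripts was 27, between Sfrp4 and Frzb, and the shortest such maximum was 10, between Sfrp5 and Frzb. The coding sequences ran from 885 bases in Sfrp2 to 1095 bases in Sfrp4.

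The genes lie on 5 different chromosomes of GRCm38. Sfrp1 (ENSMUSG00000031548.7) spans positions 23411502 to 23449632 of chromosome 8. Sfrp2 (ENSMUSG00000027996.13) spans 83766321 to 83774316 of chromosome 3, and the antisense gene Gm26771 overlaps its last exon. Gm26771 held at most 19 counts in any library. Sfrp4 (ENSMUSG00000021319.7) spans 19623104 to 19632994 of chromosome 13. Sfrp5 (ENSMUSG00000018822.7) spans 42197971 to 42202252 of chromosome 19, and Frzb (ENSMUSG00000027004.3) spans 80411970 to 80447625 of chromosome 2.

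Library totals ran from 4641437 to 13032018 counts, and the variance between replicates was 8.86 to 113 times the variance that counting error gives. The study counts its replicates as mice, and the labels do not say which loaded and unloaded libraries came from the same mouse. Loaded DEX replicate 4 stood apart from its group, with the lowest total of all libraries and the highest level of reads on olfactory and vomeronasal receptor genes, which bone should barely use (6494 CPM). Those background reads lay at 1097 to 6494 CPM in loaded DEX tibiae, 800.4 to 2918 CPM in unloaded DEX tibiae, 391 to 1364 CPM in unloaded vehicle tibiae and 260.5 to 932 CPM in loaded vehicle tibiae. Unloaded DEX replicate 4 was left out of the tests and of the means below, because the study removed a library of that number and plotted 4 unloaded DEX values. That library did not itself stand apart. Its median Spearman correlation with its group over the 500 most variable genes was 0.651, beside 0.416 for loaded DEX replicate 4. One library of each vehicle group has a number that no label carries and is called unnumbered. Defining markers of bone were present throughout: all 10 osteoblast genes and all 6 osteocyte genes of the lists used had counts in every group.

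Levels below are CPM, counts scaled to a common library size by the TMM method, and levels of different genes are compared only after division by exon length, as CPM per kb. On that scale Sfrp4 was the most abundant member without loading. It held 19.96 ± 4.68 CPM per kb (SD, n = 5) in unloaded vehicle tibiae, where Sfrp2 held 10.4 ± 3.32 CPM per kb. Frzb followed at 3.42 ± 1.26 CPM per kb, and then came Sfrp1 at 2.02 ± 0.510 and Sfrp5 at 2.00 ± 1.44 CPM per kb. The ranges of Sfrp4 (13.98 to 26.6) and Sfrp2 (7.82 to 14.5) touched only at their edges, whereas Sfrp1, Sfrp5 and Frzb could not be ordered beyond their spread.

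The 5 members together reached 37.8 ± 4.57 CPM per kb in unloaded vehicle tibiae and 68.7 ± 33.3 CPM per kb in loaded vehicle tibiae (n = 5 each). They reached 18.1 ± 2.31 CPM per kb in unloaded DEX tibiae (n = 4) and 21.8 ± 7.90 CPM per kb in loaded DEX tibiae (n = 5). Every unloaded vehicle library lay above every unloaded DEX library, since the lowest vehicle sum was 31.0 and the highest DEX sum was 21.2 CPM per kb. Sfrp4 was the leading member in 5 of 5 unloaded vehicle libraries, in 5 of 5 unloaded DEX libraries and in 4 of 5 loaded DEX libraries. In loaded vehicle tibiae Sfrp2 led in 4 of 5 libraries, with replicate 4 as the exception. The share of Sfrp2 in the family sum was 27.4% ± 7.45 in unloaded and 58.9% ± 12.9 in loaded vehicle tibiae, and 17.3% ± 7.16 in unloaded and 29.9% ± 6.96 in loaded DEX tibiae. The share of Sfrp4 was 52.6% ± 8.92 in unloaded and 24.3% ± 11.8 in loaded vehicle tibiae. These sums and shares are descriptions and were given no test.

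**Figure D1:**
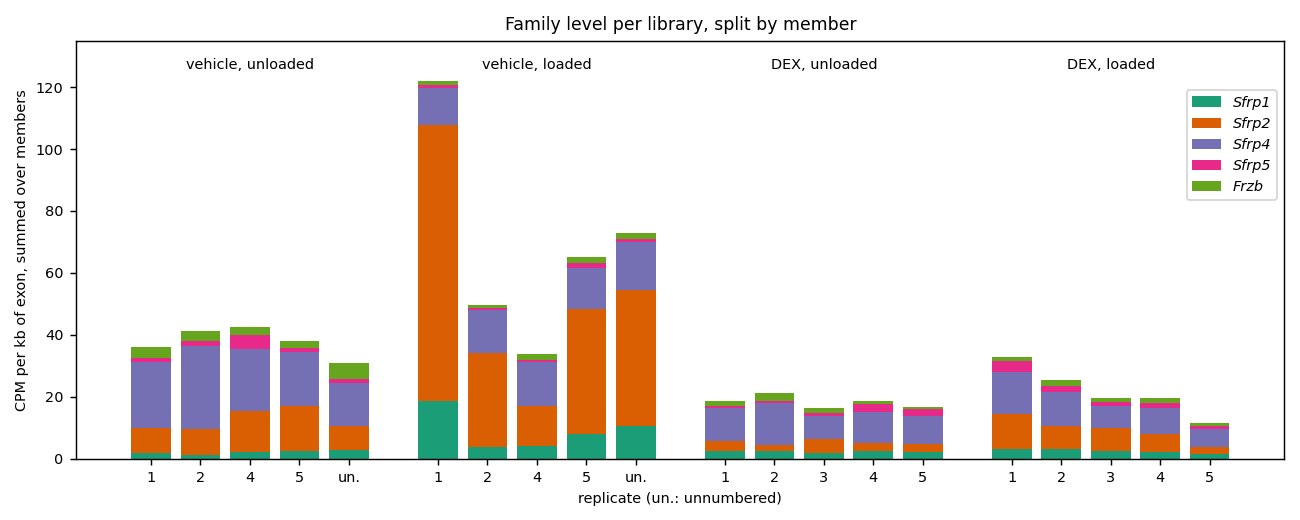
Each bar is 1 library (5 per group, named by replicate; un. is the unnumbered library), the vertical axis is CPM per kb of exon, and the colours split the bar into the 5 members. The sums run from 31.0 to 42.6 in unloaded vehicle tibiae and from 33.9 to 122 in loaded vehicle tibiae, where the Sfrp2 segment is the tallest in 4 of 5 bars, and the unloaded DEX bar of replicate 4 is drawn although it was left out of the means.

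Loading in vehicle-treated mice asks how the family responded to mechanical stress without the drug. Sfrp1 and Sfrp2 had about 4-fold higher levels in loaded than in unloaded tibiae, whereas Sfrp4, Sfrp5 and Frzb had lower ones. Under edgeR's quasi-likelihood F test, 0 of the 5 members and 0 of 17982 genes (0%) passed an adjusted p of 0.05. At an unadjusted p under 0.05, 5 of 5 members passed, beside 9.86% of all genes. DESeq2's Wald test, on the same genes, called 3 members, Sfrp1, Sfrp2 and Frzb, beside 141 genes in all (0.784%). The differences below are therefore given as values, each with the outcome of both tests. Sfrp1 and Sfrp2 were picked by the study for this response in these libraries, so their passing in these counts is not independent evidence.

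Sfrp1, which binds Wnt ligands and restrains bone formation, stood at 8.35, 5.52, 8.59, 10.2 and 11.4 CPM in unloaded vehicle replicates 1, 2, 4, 5 and unnumbered. It stood at 81.3, 16.4, 18.4, 34.5 and 45.5 CPM in the loaded vehicle replicates of the same names. Every loaded library lay above every unloaded one, but the loaded libraries themselves spread nearly 5-fold, with replicate 1 the highest and replicate 2 the lowest. The log2 fold change was 2.13 ± 0.400 (SE), or 4.38-fold, with a 95% interval of 1.26 to 3.00. The adjusted p was 0.170 in edgeR and 5.80e-05 in DESeq2.

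Sfrp2, which is expressed by mesenchymal and fibroblast cells and has been described both as an inhibitor and as a helper of Wnt signals, stood at 16.8, 17.9, 29.0, 31.3 and 16.8 CPM in unloaded vehicle replicates 1, 2, 4, 5 and unnumbered. In the loaded ones it stood at 192, 65.3, 27.7, 87.3 and 94.7 CPM. Loaded replicate 4 lay among the unloaded values, and the other 4 loaded libraries lay above all of them. Its log2 fold change was 2.03 ± 0.408 (SE), or 4.09-fold, with a 95% interval of 1.15 to 2.92, and the adjusted p was 0.179 in edgeR and 0.000188 in DESeq2. Loaded replicate 1 was the highest library for both genes, and without it the log2 fold changes were 1.69 for Sfrp1 and 1.60 for Sfrp2.

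Frzb, the member first isolated from cartilage, stood at 12.3, 9.76, 8.48, 7.21 and 17.5 CPM in unloaded vehicle replicates 1, 2, 4, 5 and unnumbered. In loaded ones it stood at 4.47, 3.52, 6.38, 5.82 and 6.64 CPM. Every loaded library lay below every unloaded one. For Frzb the log2 fold change was -1.07 ± 0.255 (SE), or 2.10-fold lower, with a 95% interval of -1.63 to -0.52, and the adjusted p was 0.229 in edgeR and 0.0202 in DESeq2. With each library left out in turn, DESeq2 kept Frzb under the threshold in 6 of 10 fits, at adjusted p-values from 0.0113 to 0.0938; it did not pass without unloaded replicate 1 or 2 or without loaded replicate 1 or 2.

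Sfrp4, made by osteoblast-lineage cells and needed for normal cortical thickness, stood at 89.5, 111, 83.8, 74.04 and 58.4 CPM in unloaded vehicle replicates 1, 2, 4, 5 and unnumbered. It stood at 50.4, 58.4, 59.6, 55.1 and 64.7 CPM in loaded ones. The loaded values were close together: 3 of 5 lay below all unloaded values, and the other 2 lay between the lowest unloaded library, the unnumbered one, and the next. Sfrp4 had a log2 fold change of -0.57 ± 0.162 (SE), with a 95% interval of -0.92 to -0.22, and it did not pass in edgeR (adjusted p = 0.328) or DESeq2 (adjusted p = 0.109). Without the unnumbered unloaded library, the lowest of its group, DESeq2 called Sfrp4 at -0.68 (adjusted p = 0.00180), and it did so in no other of the 10 fits that left out a library.

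Sfrp5, the closest relative of Sfrp1 and the least counted member, stood at 2.25, 3.50, 8.59, 2.45 and 2.20 CPM in unloaded vehicle replicates 1, 2, 4, 5 and unnumbered, and at 1.37, 1.17, 1.25, 3.23 and 1.90 CPM in loaded ones. These rest on 10 to 82 counts a library. Unloaded replicate 4 was far above the rest, and loaded replicate 5 lay among the unloaded values. The log2 fold change was -1.13 ± 0.443 (SE; adjusted p = 0.457 in edgeR and 0.333 in DESeq2), and it was -0.59 without unloaded replicate 4.

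The groups of vehicle tibiae did not overlap for 2 of 5 members, Sfrp1 above and Frzb below. Of these, Sfrp1 had been picked by the study for its rise in these libraries. Among all genes tested, 1.33% had groups that did not overlap, 0.701% with loading higher and 0.628% with loading lower.

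**Figure D2:**
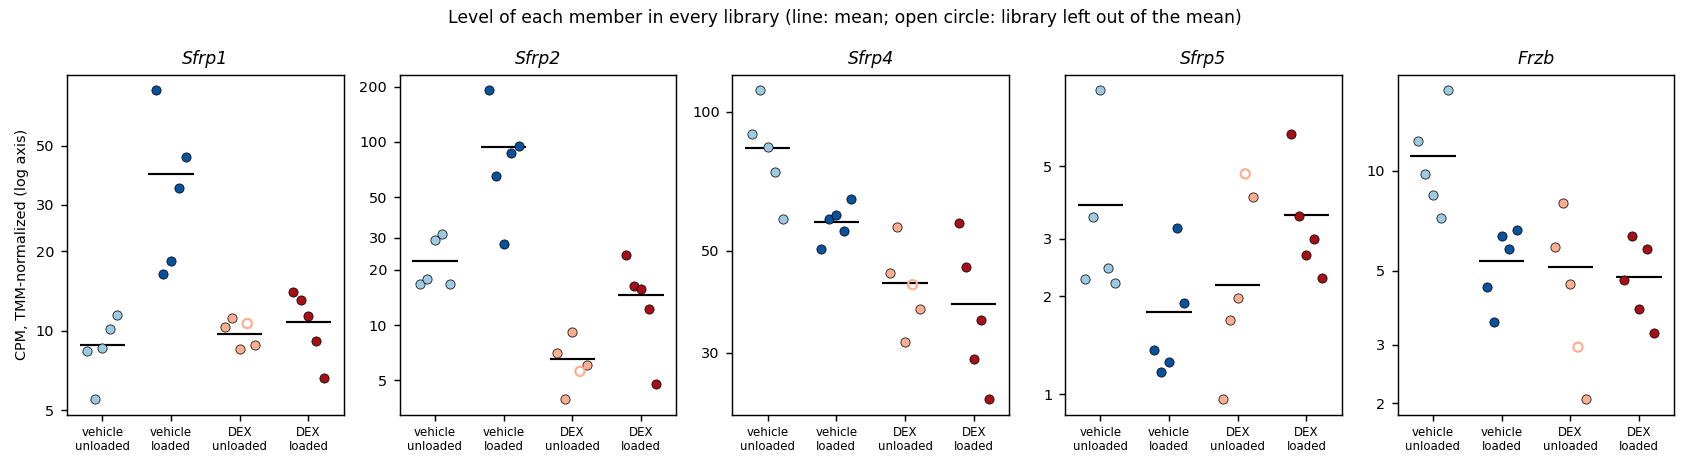
Each panel shows a member, each point a library, and the vertical axis its level in CPM on a log axis; the line is the group mean and the open circle is unloaded DEX replicate 4, which was left out of the mean. Loaded vehicle tibiae stand above the other groups for Sfrp1 and, except for replicate 4, for Sfrp2, whereas unloaded vehicle tibiae have the highest means for Sfrp4, Sfrp5 and Frzb. For Sfrp5 that rank rests on unloaded vehicle replicate 4, at 8.59 CPM beside 2.20 to 3.50 CPM in the rest of its group.

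Other signals moved between the vehicle groups together with Sfrp1 and Sfrp2. Of 12 chondrocyte marker genes tested, 10 had a positive log2 fold change with loading, with a median of 1.74 beside 0.00 over all genes, although the sum of the 15 listed markers overlapped between groups (1689 to 6677 CPM unloaded, 2980 to 4967 CPM loaded). Of 12 markers of periosteum and tendon fibroblasts, 10 were positive with a median of 0.49, and their sum was 2944 to 6410 CPM in unloaded and 3905 to 8351 CPM in loaded tibiae. The highest sum, 8351 CPM, was in loaded replicate 1, the library with the highest Sfrp1 and Sfrp2. All 12 skeletal muscle markers had negative log2 fold changes with a median of -1.09, and their sum was 10056 to 48524 CPM in unloaded and 4766 to 24477 CPM in loaded tibiae. Of 10 osteoblast markers 9 were negative, with a median of -0.28, and their sum was 42327 to 146067 CPM in unloaded and 64779 to 96473 CPM in loaded tibiae. edgeR called 0 markers of these lists. DESeq2, the test that called Sfrp1, Sfrp2 and Frzb here, called 5 chondrocyte markers and 1 periosteal marker higher and 2 osteoblast markers and 1 muscle marker lower. No listed marker of these types was at 0 in either group. The part of these tissues in the changes of the family was not tested, and in whole bone a change in the number of cells that make a transcript and a change in RNA per cell cannot be told apart.

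Loading in DEX-treated mice asks the same question under the glucocorticoid. No member passed in edgeR (0 of 22541 genes, 0%) or in DESeq2 (0%). At an unadjusted p under 0.05 edgeR passed 1 of 5 members, Sfrp2, beside 4.25% of all genes. No member had groups without overlap, beside 1.25% of all genes.

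Sfrp1 stood at 10.4, 11.2, 8.52 and 8.80 CPM in unloaded DEX replicates 1, 2, 3 and 5, and at 13.96, 13.03, 11.3, 9.13 and 6.61 CPM in loaded DEX replicates 1 to 5. The loaded values surrounded the unloaded ones. The log2 fold change was 0.13 ± 0.216 (SE), with a 95% interval of -0.34 to 0.60.

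Sfrp2 stood at 6.996, 3.94, 9.14 and 6.09 CPM in unloaded DEX replicates 1, 2, 3 and 5, and at 24.2, 16.4, 15.7, 12.3 and 4.77 CPM in loaded DEX replicates 1 to 5. Of the 5 loaded libraries, 4 lay above all unloaded ones, and replicate 5 lay among them. The log2 fold change was 1.12 ± 0.371 (SE), or 2.18-fold, with a 95% interval of 0.32 to 1.92 (edgeR adjusted p = 0.733).

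Sfrp4 stood at 44.8, 56.2, 31.6 and 37.3 CPM in unloaded DEX replicates 1, 2, 3 and 5, and at 57.3, 46.1, 29.2, 35.3 and 23.8 CPM in loaded DEX replicates 1 to 5, so that the loaded range enclosed the unloaded one. Its log2 fold change was -0.18 ± 0.238 (SE), with a 95% interval of -0.69 to 0.34. Sfrp5 ranged from 0.965 to 4.03 CPM in unloaded and from 2.28 to 6.31 CPM in loaded DEX tibiae, a log2 fold change of 0.64 ± 0.458 (SE). That value was 0.36 without loaded DEX replicate 1, 0.39 without unloaded DEX replicate 1 and 1.16 without unloaded DEX replicate 5. Frzb ranged from 2.06 to 7.998 CPM in unloaded and from 3.25 to 6.37 CPM in loaded DEX tibiae, a log2 fold change of -0.12 ± 0.346 (SE). The sign for Frzb turned when unloaded DEX replicate 2 was left out (0.17) or all 20 libraries were used (0.019). Marker lists moved between the DEX groups as well, although edgeR and DESeq2 called none of their genes. Of 12 muscle markers, 11 had a positive log2 fold change in loaded DEX tibiae, with a median of 1.18, opposite in sign to the vehicle groups, and their sum was 2934 to 21958 CPM in the 4 unloaded libraries tested and 9599 to 26908 CPM in the loaded ones. All 11 chondrocyte markers tested were negative with a median of -0.57, also opposite in sign to the vehicle groups, and the 15 listed summed to 480.2 to 1869 CPM in unloaded and 285.3 to 1297 CPM in loaded DEX tibiae. All 10 osteoblast markers were negative with a median of -0.57, at sums of 7561 to 36579 CPM and 5082 to 24306 CPM, and all 7 erythroid markers were negative with a median of -0.27. No listed marker of these types was at 0 in either group, and their part in the values of the family was not tested.

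Whether loading acted differently under DEX was asked with the interaction of DEX and loading, a single term over 19 libraries. Since Sfrp1 and Sfrp2 were picked by the study for a weaker response under DEX in these libraries, their values here describe that choice and do not test it anew. A negative value means that the log2 fold change with loading was lower under DEX than under vehicle. It was -2.02 ± 0.493 (SE) for Sfrp1, with a 95% interval of -3.05 to -0.996, an unadjusted p of 0.000509 and an edgeR adjusted p of 0.309. DESeq2 gave Sfrp1 an adjusted p of 0.0431, and it called 50 of the genes it tested (0.211%). Without 1 library at a time, DESeq2 kept Sfrp1 under the threshold in 8 of 19 fits, with adjusted p-values of 0.0101 to 0.160. Those 8 fits left out unloaded vehicle replicate 4 or unnumbered, loaded vehicle replicate 2, 4 or 5, unloaded DEX replicate 5, or loaded DEX replicate 1 or 2. edgeR called 0 of 5 members and 0 of 23653 genes (0%). Cell type markers moved with this term too: the interaction was negative for all 13 chondrocyte markers tested, with a median of -2.28, for 11 of 12 periosteal and tendon markers, with a median of -0.38, and for 9 of 10 osteoblast markers, with a median of -0.32. It was positive for all 12 muscle markers, with a median of 2.29. DESeq2 called 2 of the chondrocyte markers, both negative, and edgeR none, and the part of these cells in the interaction of Sfrp1 was not tested.

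The interaction of Sfrp2 was smaller, -0.92 ± 0.600 (SE), and its 95% interval of -2.17 to 0.32 held 0, with an unadjusted p of 0.139. Without loaded vehicle replicate 1, the library with the highest Sfrp2, it was -0.47. The loading response of Sfrp2 was thus not shown to differ between vehicle and DEX. Its interval also holds a difference as large as that of Sfrp1, so the pair was not shown to behave differently.

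The other members had interactions with a positive sign. It was 1.76 ± 0.663 (SE) for Sfrp5 (unadjusted p = 0.0151; called by DESeq2 only without unloaded DEX replicate 5, at 2.33, adjusted p = 0.0419), 0.95 ± 0.431 (SE) for Frzb (unadjusted p = 0.0384) and 0.38 ± 0.298 (SE) for Sfrp4 (unadjusted p = 0.218). In edgeR 3 of 5 members had an unadjusted p under 0.05, beside 12.1% of all genes, and none passed after adjustment. They were Sfrp5, Frzb and Sfrp1, which the study had picked.

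DEX in loaded tibiae compares the drug with vehicle under the same mechanical stress. Sfrp1 and Sfrp2 fell, and they were the 2 of 5 members that edgeR called, beside 21.3% of 19780 genes called in either direction and 8.35% called lower. With that many genes called, 2 of 5 members do not set the family apart, and the 2 are those the study had picked from these libraries. The values of Sfrp1, given above by library, ran from 6.61 to 13.96 CPM under DEX and from 16.4 to 81.3 CPM under vehicle. Sfrp2 ran from 4.77 to 24.2 CPM under DEX and from 27.7 to 192 CPM under vehicle. For both genes every DEX library lay below every vehicle library, a pattern that 8.85% of all genes showed in this direction.

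Sfrp1 fell by 1.82 ± 0.391 on the log2 scale, or 3.54-fold, with an adjusted p of 0.00997 in edgeR. Sfrp2 fell by 2.64 ± 0.466 on the log2 scale, or 6.22-fold, with an adjusted p of 0.00413. Without loaded DEX replicate 4, the library that stood apart, both stayed past the threshold, at -1.79 (adjusted p = 0.0215) and -2.60 (adjusted p = 0.0100). With the background reads as a covariate neither passed, at -1.21 (adjusted p = 0.489) and -2.07 (adjusted p = 0.291). Background reads of the loaded DEX libraries, from 1097 CPM up, did not overlap those of the loaded vehicle libraries, up to 932 CPM, so the effect of DEX and that of the background cannot be told apart here.

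The remaining members did not pass in edgeR. Sfrp4 had a log2 fold change of -0.55 ± 0.198 (SE; adjusted p = 0.0637), with 4 of 5 DEX libraries below all vehicle libraries and replicate 1 among them. Sfrp5 had one of 1.03 ± 0.406 (SE; adjusted p = 0.0851), the only positive value of the family, and it was 0.47 (adjusted p = 0.819) with the background reads as a covariate. Frzb had one of -0.12 ± 0.263 (SE; adjusted p = 0.765), with a 95% interval of -0.69 to 0.45, and -0.39 with the covariate. DESeq2 called Sfrp4 (adjusted p = 0.0446) and Sfrp5 (adjusted p = 0.0445) as well, beside 28.6% of the genes it tested. In edgeR, Sfrp4 passed without loaded DEX replicate 1 (-0.74, adjusted p = 0.0214) or replicate 2 (-0.66, adjusted p = 0.0343), and Sfrp5 passed without loaded vehicle replicate 5 (1.31, adjusted p = 0.0329).

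In the same comparison all 13 chondrocyte markers tested had negative log2 fold changes, 12 of them past the threshold, with a median of -3.23. All 12 periosteal and tendon markers were negative, 8 of them past the threshold, with a median of -1.51. Their sums did not overlap: the chondrocyte markers summed to 285.3 to 1297 CPM under DEX and 2980 to 4967 CPM under vehicle, and the periosteal ones to 1159 to 2791 CPM and 3905 to 8351 CPM. Osteoblast markers were all negative as well, with 8 of 10 past the threshold and a median of -1.58, and they summed to 5082 to 24306 CPM under DEX and 64779 to 96473 CPM under vehicle. Of 6 osteocyte markers 5 were negative, with a median of -0.81, and edgeR called 4 lower and 1 higher; their sums did not overlap either, at 674 to 1398 CPM under DEX and 1499 to 2523 CPM under vehicle. Other lists went the other way. Of 8 neutrophil markers 7 were called higher, with a median of 1.02 and sums of 6872 to 16529 CPM under DEX and 4162 to 6132 CPM under vehicle. All 12 skeletal muscle markers were positive, 1 of them past the threshold, with a median of 0.50 and sums of 9599 to 26908 CPM under DEX and 4766 to 24477 CPM under vehicle. Of 6 adipocyte markers 2 were called higher, with a median of 0.00. Of the listed markers of each type, none was at 0 in either group. The part of these cells in the fall of Sfrp1 and Sfrp2 was not tested.

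DEX in unloaded tibiae gives the effect of the drug without mechanical stress. Sfrp2 and Sfrp4 fell, and Sfrp1 did not pass. edgeR called 2 of 5 members, beside 6.84% of 19738 genes in either direction and 3.99% lower. For both called members every DEX library lay below every vehicle library, which 6.40% of all genes showed in this direction.

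Sfrp2 fell by 1.76 ± 0.274 on the log2 scale, or 3.39-fold, with a 95% interval of -2.36 to -1.16 and an adjusted p of 0.00821 in edgeR. Its 4 DEX values lay between 3.94 and 9.14 CPM and its 5 vehicle values between 16.8 and 31.3 CPM. It passed in each of the 9 fits that left out 1 library and with the background covariate, where the log2 fold change was -1.77 (adjusted p = 0.00820). Unloaded DEX replicate 4, which was not in the test, held 5.59 CPM.

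Sfrp4 fell by 0.97 ± 0.207 on the log2 scale, or 1.95-fold, with a 95% interval of -1.42 to -0.52 and an adjusted p of 0.0210. Its DEX values ran from 31.6 to 56.2 CPM and its vehicle values from 58.4 to 111 CPM, so the groups came close at DEX replicate 2 and the unnumbered vehicle library. Without unloaded DEX replicate 3, the lowest library, the adjusted p was 0.0885 and Sfrp4 no longer passed. It passed in the other 8 fits that left out a library.

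Sfrp1 had a log2 fold change of 0.16 ± 0.199 (SE; adjusted p = 0.657), with a 95% interval of -0.28 to 0.59. Its DEX values of 8.52 to 11.2 CPM lay inside its vehicle range of 5.52 to 11.4 CPM. A fall as large as the edgeR estimate in loaded tibiae lies outside that interval, but setting them side by side is not a test. The difference between them is the interaction given above, which DESeq2 called for Sfrp1 and edgeR did not. Frzb had a log2 fold change of -1.11 ± 0.346 (SE; adjusted p = 0.0756 in edgeR, 0.0240 in DESeq2), with 3 of 4 DEX libraries below all vehicle libraries. When unloaded DEX replicate 4 was kept, Frzb passed in edgeR too, at -1.23 (adjusted p = 0.0300). Sfrp5 had a log2 fold change of -0.76 ± 0.509 (SE; adjusted p = 0.376), which was -0.25 without unloaded vehicle replicate 4 and -1.31 without unloaded DEX replicate 5. DESeq2 thus called 3 members, Sfrp2, Sfrp4 and Frzb, beside 13.8% of the genes it tested. With each library left out in turn, Frzb passed in DESeq2 in 5 of 9 fits, at adjusted p-values from 0.00545 to 0.0987, and it did not pass without unloaded vehicle replicate 1 or unnumbered or without unloaded DEX replicate 3 or 5. Periosteal and tendon markers summed to 1615 to 2110 CPM in the 4 unloaded DEX libraries tested (2844 CPM in the library left out) and 2944 to 6410 CPM in unloaded vehicle tibiae, without overlap, and osteoblast markers to 7561 to 36579 CPM and 42327 to 146067 CPM. Of these lists, 5 of 12 and 6 of 10 markers were past the threshold, all lower. All 5 osteocyte markers tested were negative, 3 of them past the threshold, with a median of -0.83, and the listed ones summed to 1011 to 1668 CPM in the DEX libraries tested and 1804 to 2561 CPM in vehicle ones, again without overlap. Of the 8 marker lists skeletal muscle had the median farthest from 0, with all 12 markers negative and a median of -1.75, at sums of 2934 to 21958 CPM under DEX and 10056 to 48524 CPM under vehicle; edgeR called 0 of them and DESeq2 called 2 lower. Neutrophil markers had 6 of 8 called higher, at sums of 8590 to 15697 CPM under DEX and 4844 to 7029 CPM under vehicle. Of 12 chondrocyte markers tested, 5 were positive and 7 negative, with a median of -0.25, and edgeR called 1 lower and DESeq2 3. The 15 listed summed to 480.2 to 1869 CPM under DEX and 1689 to 6677 CPM under vehicle, ranges that overlapped at their edges. The part of these cells in the fall of Sfrp2 and Sfrp4 and in the lower values of Frzb was not tested.

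**Figure D3:**
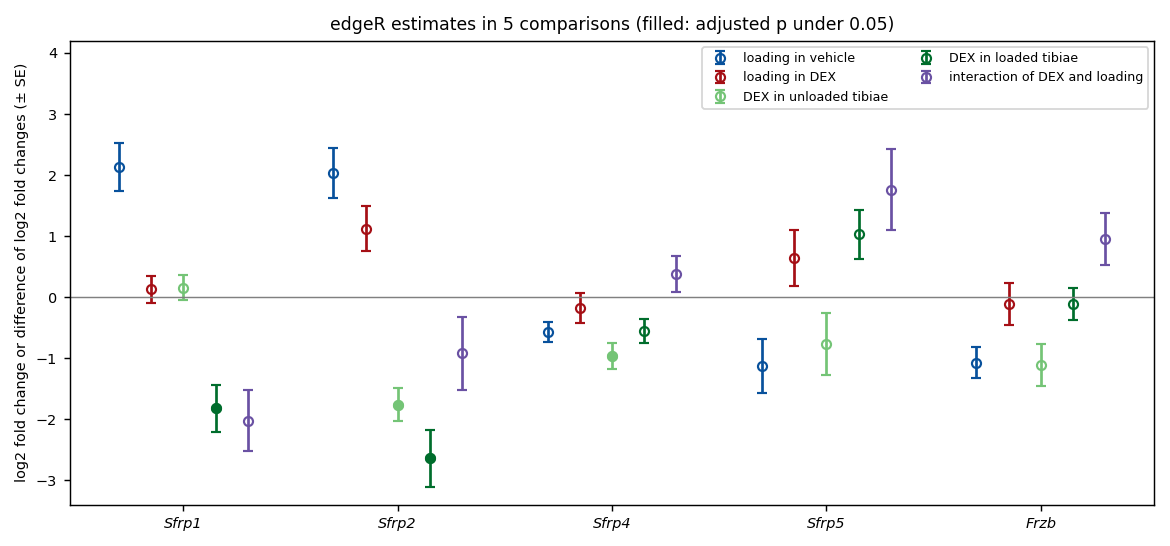
Points are edgeR log2 fold changes of the 5 members in 4 comparisons and, for the interaction, differences of log2 fold changes; bars are standard errors, and filled points have an adjusted p under 0.05. The filled points are Sfrp1 and Sfrp2 for DEX in loaded tibiae (-1.82 and -2.64) and Sfrp2 and Sfrp4 for DEX in unloaded tibiae (-1.76 and -0.97).

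Set side by side, the members followed different courses over the 4 groups. The mean of Sfrp1 was 8.81 ± 2.23, 39.2 ± 26.4, 9.71 ± 1.26 and 10.8 ± 2.98 CPM in unloaded vehicle, loaded vehicle, unloaded DEX and loaded DEX tibiae (SD, n = 5, 5, 4 and 5). Loaded vehicle tibiae alone stood apart, and the other groups could not be ordered beyond their spread. The mean of Sfrp2 was 22.4 ± 7.15, 93.4 ± 61.02, 6.54 ± 2.15 and 14.7 ± 7.03 CPM in the same order. For Sfrp2 both unloaded groups had lower means than their loaded partners, and unloaded DEX tibiae had the lowest of all.

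The mean of Sfrp4 was 83.4 ± 19.6, 57.6 ± 5.30, 42.5 ± 10.6 and 38.3 ± 13.4 CPM, so that unloaded vehicle tibiae were the highest and the DEX groups, which overlapped fully, the lowest. Frzb was 11.1 ± 4.07 CPM in unloaded vehicle tibiae and 5.37 ± 1.33, 5.13 ± 2.49 and 4.80 ± 1.31 CPM in the other groups, which overlapped. Sfrp5 was 3.80 ± 2.73, 1.78 ± 0.858, 2.16 ± 1.31 and 3.55 ± 1.61 CPM, and no group stood apart from its neighbours in that order.

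Over the 20 libraries Sfrp1 and Sfrp2 varied together, with Pearson's r of 0.80 for log2 CPM and 0.71 after the group means were removed. Sfrp2 ranked 34th among 22659 genes by likeness to Sfrp1. Sfrp4 and Frzb had an r of 0.66, which was 0.29 within groups. The close sequence pair Sfrp1 and Sfrp5 had an r of -0.31, or 0.13 within groups. These values describe libraries that share groups, depth and tissue mixture, and they carry no test.

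**Figure D4:**
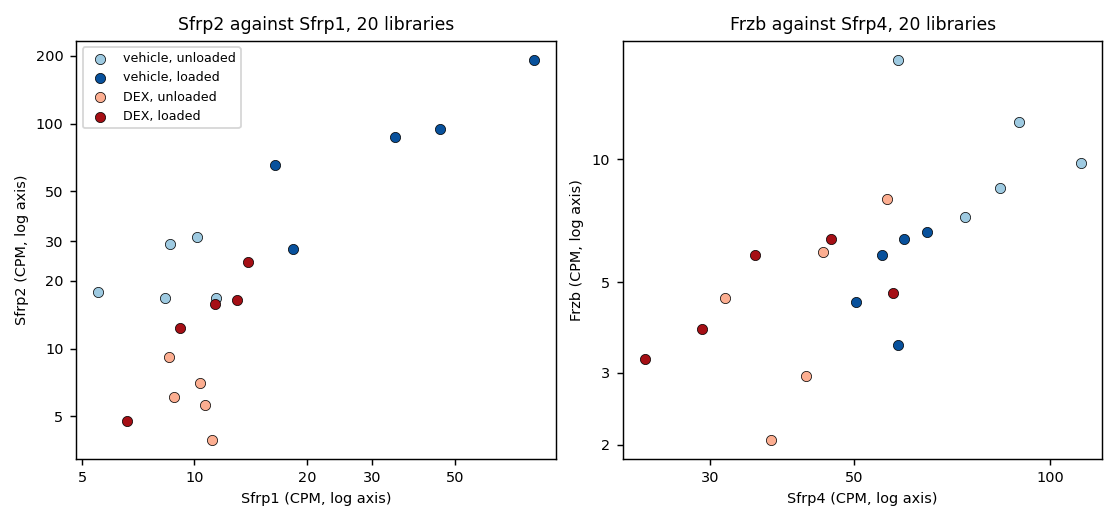
Each point is 1 of 20 libraries, coloured by group, with both axes in CPM on log axes; Sfrp2 is plotted against Sfrp1 on the left and Frzb against Sfrp4 on the right. On the left the loaded vehicle libraries lie at the upper right (r = 0.80), and on the right the unloaded vehicle libraries do (r = 0.66).

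The genes most like each member, by r over the same 20 libraries, differed from member to member. For Sfrp1 they were Angptl4 (0.91), a secreted regulator of lipoprotein lipase that glucocorticoids and fasting induce, Cfb (0.90), a complement factor, and Smoc1 (0.89), a matrix protein that the study also picked from these libraries. For Sfrp2 they were Megf6 (0.94), Tnmd (0.94), the tendon marker tenomodulin, and Cpxm2 (0.94). For Sfrp4 they were Tnfrsf11b (0.93), which encodes osteoprotegerin, the decoy receptor that restrains osteoclasts, Bgn (0.92), the matrix proteoglycan biglycan, and 1700066M21Rik (0.92). For Frzb they were Clec3a (0.88), a lectin of cartilage, Cacna2d3 (0.87) and Ddi1 (0.80). Sfrp5 had lower values, 0.70 each for Lmod1, Tagln and Cnn1, which are smooth muscle contractile genes. All but the Sfrp5 values lay in the range from 0.80 up, and after removal of the group means the 15 values ranged from 0.61 to 0.85.

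The rest of the Wnt pathway gave the setting for these changes. The lists held 59 genes: 19 Wnt ligands, 15 receptors and co-receptors, 9 other secreted inhibitors, 7 R-spondins and their receptors, and 9 target genes. With loading in vehicle-treated mice, edgeR and DESeq2 called 0 of the 46 tested, beside 0% and 0.784% of all genes. At an unadjusted p under 0.05 edgeR had 2 higher and 8 lower, beside 9.86% of all genes in either direction. Their median log2 fold change was -0.04, beside 0.00 over all genes. Sclerostin, encoded by Sost, is the inhibitor made by osteocytes, and it held 686 ± 138 CPM in unloaded and 579 ± 167 CPM in loaded vehicle tibiae, a log2 fold change of -0.28 ± 0.199 (SE). The other secreted inhibitors Dkk1 (-0.28) and Wif1 (-0.41), the ligand Wnt16 (-0.60) and the targets Axin2 (-0.24) and Lef1 (0.16) did not pass. None of these approached the 2.13 and 2.03 of Sfrp1 and Sfrp2. The study had picked that pair for its loading response in these libraries, so its lead over the list is not a test.

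With loading under DEX, 0 of 56 listed genes passed in either tool. At an unadjusted p under 0.05 edgeR had 4 higher and 0 lower, beside 4.25% of all genes in either direction. For the interaction 0 of 56 passed in either tool as well, beside 0% of all genes in edgeR and 0.211% in DESeq2. Here edgeR had 6 positive and 0 negative at an unadjusted p under 0.05, beside 12.1% of all genes, so this count does not set the list apart. The median interaction of the listed genes was 0.15, beside 0.07 over all genes.

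With DEX, more of the listed pathway genes fell than rose. In unloaded tibiae, edgeR called 0 of 48 listed genes higher and 9 lower (18.75% of the list, beside 6.84% of all genes called and 3.99% called lower), with a median log2 fold change of -0.31 beside 0.03 over all genes. The smallest adjusted p-values belonged to Dkk3 (-1.24 ± 0.229, adjusted p = 0.0129), a Dickkopf relative, Ccn4 (-1.04 ± 0.214, adjusted p = 0.0178), a Wnt target also called Wisp1, and Wnt5b (-0.97 ± 0.210, adjusted p = 0.0210), a ligand. Of the other inhibitors, Dkk1 (-0.74, adjusted p = 0.0220) and Wif1 (-0.81, adjusted p = 0.0342) fell too, and Sost (-0.48, adjusted p = 0.158) did not pass. Among the targets, Lef1 had -0.85 (adjusted p = 0.0609) and Axin2 -0.22 (adjusted p = 0.473).

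In loaded tibiae edgeR called 4 of 51 listed genes higher and 15 lower, with a median of -0.20 beside 0.00 over all genes. The called genes were 37.3% of the list, beside 21.3% of all genes called and 8.35% called lower. Dkk3 (-1.94 ± 0.324, adjusted p = 0.00307), Lef1 (-1.11 ± 0.192, adjusted p = 0.00367) and Wnt9b (3.11 ± 0.565, adjusted p = 0.00470) had the smallest adjusted p-values. Wnt9b, a ligand, was at 3 to 9 counts in loaded vehicle libraries and 27 to 78 counts in loaded DEX libraries. Background reads were higher under DEX too, and their part in that change and in the other changes of the listed genes was not tested. Sost (-0.65, adjusted p = 0.0499, just under the threshold), Dkk1 (-0.85, adjusted p = 0.0217) and Wif1 (-0.91, adjusted p = 0.0121) fell, whereas Axin2 (0.22, adjusted p = 0.353) and Wnt16 (0.23, adjusted p = 0.632) did not pass. By other measures the study reported a rise: more Sost-positive osteocytes in mouse femurs after a longer DEX course, and higher SOST in cultured human bone. Of the 7 other secreted inhibitors tested, 4 were called lower and 0 higher, with a median of -0.79, beside the 2 of 5 frizzled-related members called lower.

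**Figure D5:**
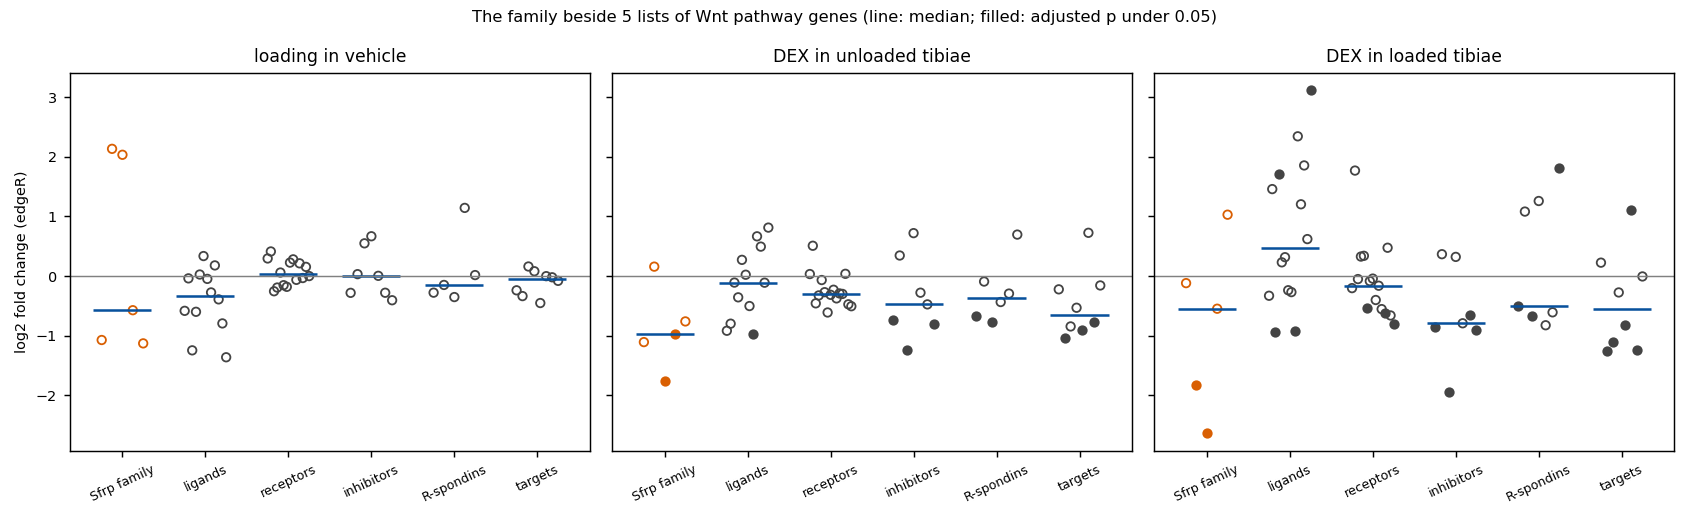
Points are edgeR log2 fold changes of the 5 members and of the tested genes of the 5 Wnt lists in 3 comparisons; lines are medians and filled points have an adjusted p under 0.05. With loading in vehicle the listed genes lie between -1.36 and 1.14. Sfrp1 and Sfrp2, picked by the study for their loading response in these libraries, are at 2.13 and 2.03. Under DEX the filled points are mostly below 0.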

How the data were processed

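The authors sequenced SMARTer Stranded Total RNA libraries and deposited RSEM expected counts per gene, estimates that need not be whole (10.6% to 14.0% of values per library were not), with no scaling. Per the labels, reads were processed with STAR 2.7.10a and RSEM 1.2.28 on GRCm38. The annotation release is not given in the sources used here, and GENCODE M21 supplied symbols, exon lengths and positions for 54409 identifiers matched without version. Counts were rounded. Genes were kept by filterByExpr on the groups compared, normalized by TMM and tested with edgeR 4.0.16 (quasi-likelihood F test, R 4.3.3, limma 3.58.1) with Benjamini-Hochberg adjustment over all genes tested and a threshold of 0.05. The standard error is the absolute log2 fold change divided by the square root of F. DESeq2 1.42.0, which the study used, was run on the same filtered genes. Displayed CPM were scaled over 22659 genes kept in all 20 libraries, and likeness was measured on log2 CPM (prior count 2). Background reads were summed over 1965 olfactory and vomeronasal receptor genes. Coding sequences were aligned with MAFFT 7.526. The tests were tested on simulated data. DEX in unloaded tibiae was not among the comparisons simulated.

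Unloaded DEX replicate 4 was left out, since the text of the study removes a DEX-4 library without naming the limb and its plots hold 4 unloaded and 5 loaded DEX values. The column numbered 6 of each vehicle group matched no sample label and was kept as a replicate without a number. The members, the marker and Wnt lists and the tests were chosen with earlier results of these data known. Named genes are the 5 members in every comparison, Sost, Dkk1, Wif1, Wnt16, Axin2 and Lef1, the 3 listed Wnt genes with the smallest adjusted p among those past the threshold in each comparison, and the 3 genes most like each member. Other marker lists, of neutrophils, erythroid cells and adipocytes, were measured as well: neutrophil markers summed to 4162 to 7029 CPM in vehicle and 6872 to 16529 CPM in DEX tibiae, erythroid markers to 2112 to 6342 CPM and adipocyte markers to 168 to 357.5 CPM over all groups. Alternatives were the Wald test of DESeq2, its size factors within edgeR, other filters on low counts, a fit over all 4 groups, a fit over all 20 libraries, the replicate number as a block, background reads as a covariate and each library left out in turn. For loading in DEX and the interaction, loaded DEX replicate 4 was also left out in place of the unloaded one, or both were. With loading in DEX, Sfrp5 was then 0.40 and 0.71, beside 0.64 in the main fit. DESeq2 without each library was chosen after seeing the data.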

Additional observations from a re-analysis of the deposited data

Results flagged for a closer look

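Sfrp5 in unloaded vehicle replicate 4 stood far from the rest of its group, at 8.59 CPM beside 2.20 to 3.50 CPM in the other 4 libraries. Its gap to the nearest library was 0.797 of the range of the group. Chance puts about 1 in 20 groups past the limit used, and 1 of the 20 groups tested (5 members in 4 groups) was past it. Without this library the log2 fold change of Sfrp5 with loading in vehicle-treated mice was -0.59 in place of -1.13.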

How the results depend on the processing

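The number of members past the threshold depended on the test. For loading in vehicle-treated mice edgeR called 0, DESeq2 called 3, edgeR without a filter on low counts 2 (Sfrp1 and Sfrp2) and edgeR with all 4 groups in the same model 1 (Sfrp1). With each library left out in turn, edgeR called 0 and DESeq2 2 to 4. For DEX in loaded tibiae the count was 2 in edgeR (2 to 3 with each library left out), 3 in edgeR without the filter or with all 4 groups, 4 in DESeq2 and 0 with background reads as a covariate. For DEX in unloaded tibiae it was 2 in edgeR, with 1 to 2 when each library was left out and 1 only without unloaded DEX replicate 3. It was 3 in DESeq2 (2 to 3 with each library left out) and 3 in edgeR without the filter, with all 4 groups or with all 20 libraries. For the interaction it was 0 in edgeR and 1 in DESeq2, which gave 0 to 2 with each library left out, 2 without unloaded DEX replicate 5. For loading in DEX it was 0 under every alternative run. Frzb changed sign in 4 fits, all of them near 0: loading in DEX with all 20 libraries (0.019) or without unloaded DEX replicate 2 (0.17, the highest of a leave-one-out range from -0.38), and DEX in loaded tibiae with the replicate block (0.0030) or on the same libraries without it (0.0032). The cause of these differences was not tested.

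Sample numbers are not stated to mark mice. The deviations of same-numbered loaded and unloaded libraries correlated at -0.30 to 0.25 for vehicle and 0.03 to 0.36 for DEX, so the numbers were not taken to pair the samples. With the replicate block the log2 fold change with loading in vehicle-treated mice was 1.90 for Sfrp1 (adjusted p = 0.0836) and 1.66 for Sfrp2 (adjusted p = 0.260), and the block changed no count of members called. Over all alternatives, 636 fold changes or interactions of members kept direction and side of the threshold, 59 came to pass it, 3 no longer did and 4 changed sign. Of the counts of members called, 116 stayed within 1.5 times the count reported and 25 did not. Small values that did not pass also moved by over 1.5 times when single libraries were left out: Sfrp1, Sfrp4 and Frzb with loading in DEX, Frzb for DEX in loaded tibiae, Sfrp1 for DEX in unloaded tibiae and Sfrp4 in the interaction. Sfrp5 rested on 8 to 82 counts a library, which limits its precision.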
